A study of Drosophila melanogaster with 12 samples.

Results

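The aminoacyl-tRNA synthetases are the enzymes that load amino acids onto their tRNAs, and their transcripts were followed here in oocytes and eggs of Drosophila melanogaster that lack or carry a working wispy (wisp) gene. Members were the records whose listed gene name starts with Aats-, together with CG33123, CG15100, CG17259, CG31739, CG2263 and CG5706, which the annotation names LeuRS, MetRS, SerRS, AspRS-m and the alpha and beta subunits of PheRS. The rule found 27 genes, each with 1 record, of 5421 records in all. From their RefSeq names, 7 encode mitochondrial enzymes (LeuRS-m, SerRS-m, PheRS-m, AspRS-m, AlaRS-m, MetRS-m and TyrRS-m) and 20 were counted as cytoplasmic. Of these 20, GlyRS, HisRS, LysRS and ThrRS are known to serve both compartments. The current RefSeq symbols are used below, so that Aats-leu, Aats-ser, Aats-phe and Aats-met of the deposited table appear as LeuRS-m, SerRS-m, PheRS-m and MetRS-m.

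Total RNA was sequenced after removal of ribosomal RNA, with 2 libraries in each of 6 groups and 12 in all. The groups were wispKG5287 immature oocytes (oogenesis stages 9 to 10), mature oocytes (stage 14) and activated eggs (unfertilized, 0 to 1 h old), and the same 3 stages of the w1118 wild type (WT), written wisp and WT here. The labels describe wispKG5287 as a null allele, and no rescue or other allele was among the samples. Oocytes were dissected by hand from females aged 3 to 4 days. Eggs came at 25 °C from virgin females mated to sterile sons of tud1 mothers; the labels' protocol names only w1118 for these females, although it is attached to the wisp eggs too. The replicates are called biological in the labels, which do not say whether they came from separate sets of flies, so p-values measure the spread between these libraries only.

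A synthetase activates its amino acid with ATP and joins it to the matching tRNA, which then goes to the ribosome. Mitochondria translate a few proteins of oxidative phosphorylation on their own ribosomes with their own tRNAs, and the synthetases that charge those tRNAs are made from nuclear genes and imported. In animals several cytoplasmic synthetases are held with the scaffold proteins AIMP1, AIMP2 and AIMP3 in a multisynthetase complex. The late oocyte is transcriptionally silent and relies on transcripts supplied during oogenesis, and wisp encodes a poly(A) polymerase of the cytoplasm, which extends the tails of such transcripts.

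The deposited values were the authors' normalised read counts, whose sums per library ran from 11081267 to 14089899; the depth of sequencing is unknown, and no value in any library was below 100.07. The table therefore lists a gene only if it stayed above that level in each library. The wisp gene itself lay between 189 and 718 in the 6 wisp libraries and between 3623 and 17226 in the 6 WT libraries, with no overlap at any stage. Replicates correlated across records at 0.858 and 0.828 in wisp and WT immature oocytes, 0.994 and 0.993 in mature oocytes and 0.914 and 0.957 in activated eggs. Of 17 nurse cell and germline markers 17 were in the table, and 0 of 27 follicle cell, 0 of 4 fat body and 1 of 6 muscle sheath markers were. Because a marker below that level in any library is missing, these counts do not show which cell types were present. In these bulk samples fewer cells of a type and less RNA per cell cannot be told apart.

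Within the family, transcripts of cytoplasmic enzymes were more abundant per unit of transcript length than those of mitochondrial enzymes. In WT mature oocytes the mean normalised read count per kb ran from 427 (CysRS) to 1593 (LysRS) among the 20 cytoplasmic genes and from 174 (MetRS-m) to 536 (AspRS-m) among the 7 mitochondrial genes. LysRS stood at percentile 90.1 of all records on this scale, and MetRS-m at percentile 6.14. AspRS-m was the 1 mitochondrial gene above any cytoplasmic gene, since CysRS lay below it; the other 6 mitochondrial genes lay at 368 (LeuRS-m) or below. In wisp mature oocytes the scale ran from 84.1 (PheRS-m) to 1845 (LysRS), and the lowest 3 positions were held by PheRS-m, SerRS-m (116) and LeuRS-m (143).

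**Figure D1:**
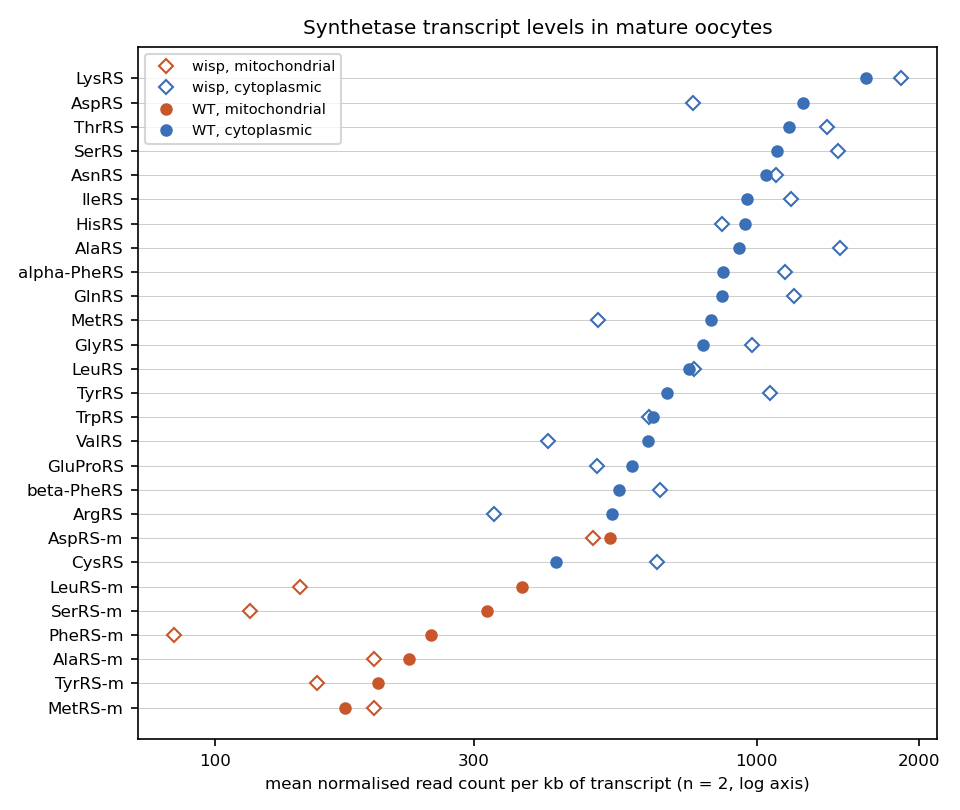
Mean normalised read count per kb of transcript in mature oocytes (log axis, n = 2 libraries per point) for the 27 synthetase genes, ordered by the WT level; open diamonds are wisp, filled circles WT, blue cytoplasmic and orange mitochondrial enzymes. The mitochondrial genes fill the low end, and PheRS-m, SerRS-m and LeuRS-m lie furthest below their WT points, at 84.1, 116 and 143 in wisp.

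The comparison of wisp with WT mature oocytes asks which synthetase transcripts differ at the end of oogenesis. Called lower in wisp were transcripts of 3 mitochondrial enzymes, PheRS-m, SerRS-m and LeuRS-m, and of 1 cytoplasmic enzyme, ArgRS. No member was called higher. The fit shares a single spread per gene over all 6 groups, so the standard errors also carry the spread of immature oocytes and eggs. Fits with other estimates of spread, given below, did call members higher. Wisp oocytes held 0.337 of the WT level of PheRS-m, 0.365 of SerRS-m and 0.389 of LeuRS-m, while ArgRS stood at 0.606 of WT. The 4 of 27 members called lower are 14.8%, set against 9.37% of all records, and 0 members were called higher, against 0.683% of all records. By class 3 of 7 mitochondrial and 1 of 20 cytoplasmic genes were called.

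PheRS-m charges mitochondrial tRNA with phenylalanine and, unlike the cytoplasmic enzyme, works as a single chain. Its normalised read counts were 139 and 118 in the wisp mature libraries, against 358 and 405 in WT. Both wisp libraries lay far below both WT libraries, near the floor of the table. Its log2 fold change was -1.57 (SE 0.23, limma with Benjamini-Hochberg adjustment over all 5421 records, adjusted p = 0.00465). SerRS-m (chromosome arm 3R, 15340667 to 15343218, plus strand, dm6), the mitochondrial serine enzyme, had 215 and 253 in wisp and 632 and 651 in WT, again without overlap. The log2 fold change of SerRS-m was -1.46 (SE 0.23, limma adjusted p = 0.00674). LeuRS-m (3L, 4825853 to 4829038, plus strand, dm6), the mitochondrial leucine enzyme, had 393 and 473 in wisp and 1063 and 1161 in WT. Every WT value of LeuRS-m was more than 2 times any wisp value, and its log2 fold change was -1.36 (SE 0.26, limma adjusted p = 0.013).

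The other 4 mitochondrial genes did not pass the test in mature oocytes. AspRS-m, the most abundant of them, had 1801 and 2089.7 in wisp and 1997 and 2181 in WT, and its groups overlapped (log2 fold change -0.11, limma adjusted p = 0.948). AlaRS-m had 602 and 668 in wisp, below the 713 and 763 of WT by a smaller margin (-0.22, limma adjusted p = 0.852). TyrRS-m likewise had 257 and 218 in wisp, under the 333 and 284 of WT (-0.38, limma adjusted p = 0.287). MetRS-m, which charges the tRNA that starts mitochondrial proteins, was the 1 mitochondrial gene with a positive value, with 409.6 and 508 in wisp and 369.9 and 442 in WT (0.17, limma adjusted p = 0.884). The fall in wisp mature oocytes was thus called for the phenylalanine, serine and leucine enzymes, and the values of the other 4 spread from -0.38 to 0.17.

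Cytoplasmic members lay on both sides of WT in mature oocytes. ArgRS (X, 15841769 to 15844145, minus strand, dm6), the arginine enzyme of the multisynthetase complex, had 671 and 729 in wisp and 1113 and 1199.7 in WT, a log2 fold change of -0.72 (SE 0.18, limma adjusted p = 0.0408). MetRS had 1669 and 1799.9 in wisp against 2718 and 2893 in WT, and AspRS 1399 and 1618 against 2456 and 2363. ValRS had 1391 and 1375 in wisp against 2151 and 2081 in WT, and GluProRS 2275 and 2072 against 2555 and 2475. The methionine and aspartate enzymes were lower in both wisp libraries without passing the test (-0.69, limma adjusted p = 0.28, and -0.68, limma adjusted p = 0.112), and so were ValRS (-0.61, limma adjusted p = 0.393) and GluProRS (-0.21, limma adjusted p = 0.879). At the other end TyrRS had 1859 and 1885 in wisp and 1233 and 1189.7 in WT, a log2 fold change of 0.63 (limma adjusted p = 0.222). AlaRS had 4525 and 4532 in wisp and 2957 and 2947 in WT (0.62, limma adjusted p = 0.257), and CysRS was at 0.62 (limma adjusted p = 0.0775). Among the 20 cytoplasmic genes both wisp libraries lay above both WT libraries in 11 and below them in 6. For the 7 mitochondrial genes these counts were 0 above and 5 below, and over all records 30.2% lay above and 39.9% below. The median log2 fold change was -0.38 over the mitochondrial genes, 0.22 over the cytoplasmic genes and -0.03 over all records. With quantile normalization these medians were -0.093, 0.13 and 0.063, and with median-of-ratios scaling they were -0.32, 0.28 and 0.03.

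**Figure D2:**
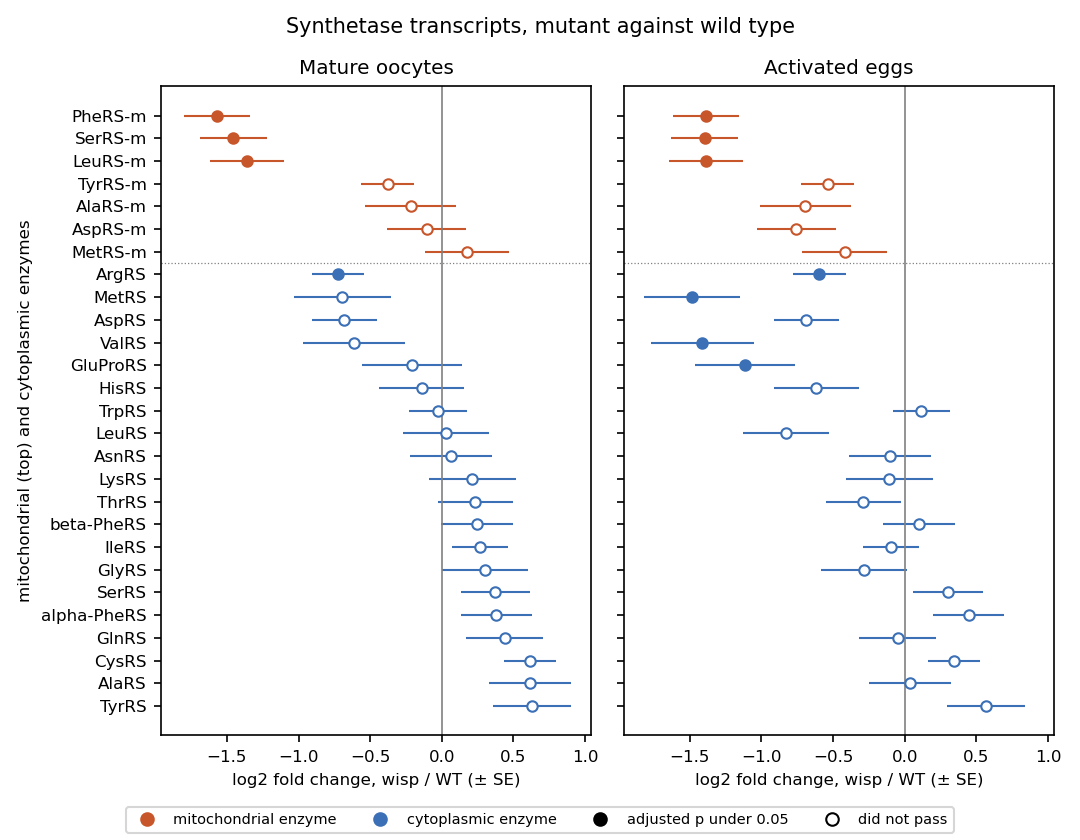
Log2 fold change of wisp over WT with its standard error (limma) for the 27 synthetase genes in mature oocytes (left) and activated eggs (right), each from 2 libraries per group; filled points passed an adjusted p of 0.05. PheRS-m, SerRS-m and LeuRS-m lie between -1.57 and -1.36 in both panels. MetRS (-1.48), ValRS (-1.41) and GluProRS (-1.12) passed in activated eggs only.

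The number of calls depended on the libraries in the fit, among members and over all records alike. Without WT mature replicate 2, 0 members were called, with PheRS-m at -1.48 (limma adjusted p = 0.0592); without wisp replicate 1 or WT replicate 1 PheRS-m was the 1 member left, and without wisp replicate 2 PheRS-m and SerRS-m were left. With quantile normalization 0 of the 4 passed, with log2 fold changes of -1.16 for PheRS-m and -1.10 for SerRS-m, and ArgRS also missed the threshold with median-of-ratios scaling (limma adjusted p = 0.052). Over all records quantile normalization called 43 lower and 7 higher, where the fit without it called 508 and 37. A fit of the 4 mature libraries alone called 15 members, 8 lower and 7 higher. Over all 5421 records that fit called 1474 lower and 800 higher.

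In activated eggs 7 members were called lower in wisp and 0 higher. PheRS-m, SerRS-m and LeuRS-m were again among them, at 0.382, 0.38 and 0.383 of WT, and 4 cytoplasmic enzymes passed, MetRS, ValRS, GluProRS and ArgRS. The 7 of 27 members are 25.9%, set against 17.7% of all records called lower, and 7.3% of all records were called higher. The count was 3 of 7 among mitochondrial and 4 of 20 among cytoplasmic genes.

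PheRS-m had 164 and 106 in the wisp eggs, against 353 and 342 in WT eggs (log2 fold change -1.39, SE 0.23, limma adjusted p = 0.00633). SerRS-m had 289.7 and 194 in wisp and 595 and 658 in WT (-1.40, SE 0.23, limma adjusted p = 0.00654). LeuRS-m had 532 and 349 in wisp and 1116 and 1137 in WT (-1.39, SE 0.26, limma adjusted p = 0.00909). In all 3 the groups stood well apart, and wisp replicate 2 was the lowest library. The remaining mitochondrial genes were lower in both wisp libraries as well and missed the threshold. Of these AspRS-m had 1487 and 1817 in wisp and 2277 and 3397 in WT (-0.76, limma adjusted p = 0.0765), without overlap and with its WT libraries far from each other. TyrRS-m had 224 and 189 in wisp and 311 and 288 in WT (-0.54, limma adjusted p = 0.0645). AlaRS-m had 645 and 377 in wisp and 806 and 792 in WT (-0.69, limma adjusted p = 0.145). MetRS-m, with 412 and 249 in wisp and 425 and 434 in WT, showed the smallest difference of the 7 (-0.42, limma adjusted p = 0.337), since wisp replicate 1 came close to both WT libraries. Both wisp libraries were thus below both WT libraries in 7 of 7 mitochondrial members, where 38.9% of all records had that order. Of the 4 mitochondrial enzymes outside the rule that are in the table, TrpRS-m and ValRS-m had it too. CysRS-m overlapped, and ArgRS-m had the opposite order, with 555 and 483 in wisp eggs and 459 and 476 in WT eggs.

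The 4 cytoplasmic calls in activated eggs included the largest differences of the family. MetRS, which also charges the initiator tRNA of the cytoplasm, had 1614 and 897 in wisp and 3283 and 3451 in WT (-1.48, SE 0.34, limma adjusted p = 0.0172). ValRS, the valine enzyme, had 1319 and 677 in wisp and 2477 and 2556 in WT (-1.41, SE 0.36, limma adjusted p = 0.0244). In both genes wisp replicate 2 was far below wisp replicate 1, and both lay below the 2 WT libraries. GluProRS, a single protein with the glutamate and the proline enzyme, had 2098 and 1149 in wisp and 3312 and 3424 in WT (-1.12, SE 0.35, limma adjusted p = 0.048). ArgRS had 757 and 736 in wisp and 1059 and 1202 in WT (-0.60, SE 0.18, limma adjusted p = 0.0457), and its replicates were close in both genotypes. LeuRS (-0.83, limma adjusted p = 0.0757), AspRS (-0.69, limma adjusted p = 0.0562) and HisRS (-0.62, limma adjusted p = 0.165) were lower in both wisp libraries without passing. TyrRS had 2395 and 1431 in wisp and 1353 and 1152 in WT. TyrRS (0.57), alpha-PheRS (0.45) and CysRS (0.34) were the 3 cytoplasmic genes with both wisp libraries above both WT libraries, where 21.4% of all records had that order, and they did not pass (limma adjusted p = 0.162, 0.222 and 0.207). The median log2 fold change was -0.76 over the mitochondrial genes, -0.11 over the cytoplasmic genes and -0.16 over all records. The cytoplasmic median changed sign with the scaling, since quantile normalization and median-of-ratios scaling each put it at 0.10, beside mitochondrial medians of -0.49 and -0.55.

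**Figure D3:**
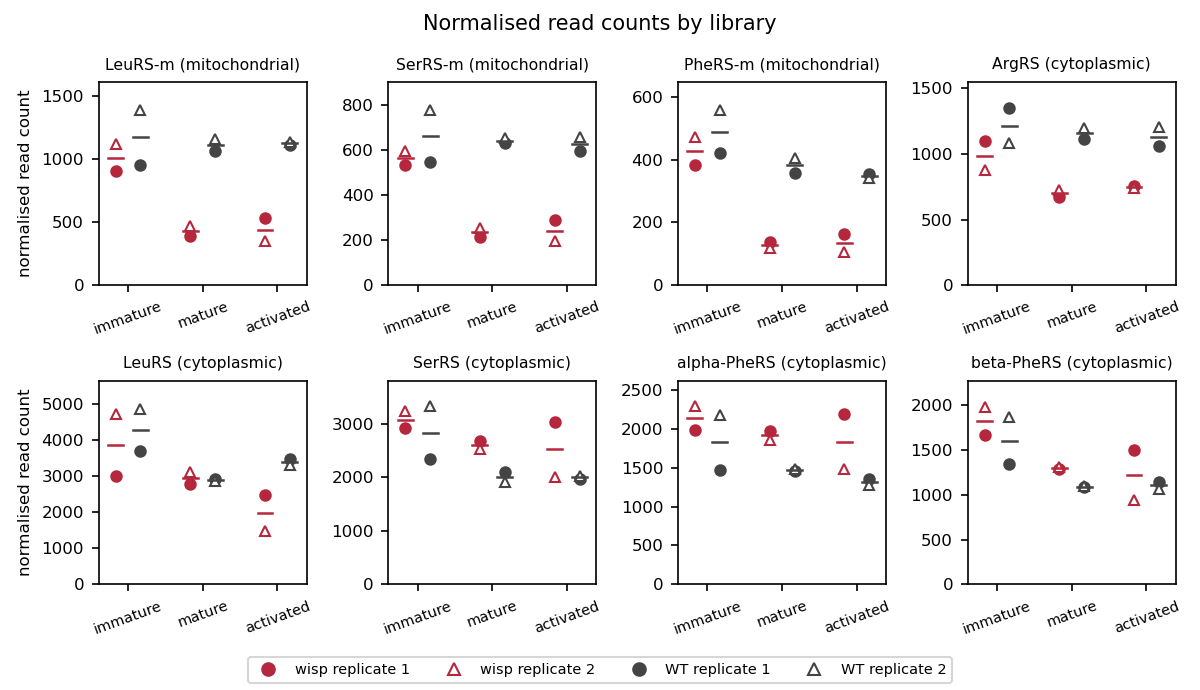
Normalised read count in each of the 12 libraries by stage for the 3 mitochondrial enzymes called in both comparisons, for ArgRS, and for the cytoplasmic enzymes of the same 3 amino acids; red marks wisp, dark grey WT, circles replicate 1, triangles replicate 2 and bars the mean of 2. LeuRS-m, SerRS-m and PheRS-m overlap between genotypes in immature oocytes and stand apart in mature oocytes and eggs, where the highest wisp values were 532, 290 and 164 and the lowest WT values 1063, 595 and 342.

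Wisp activated replicate 2 stood apart within its group. All 20 cytoplasmic genes were lower in it than in replicate 1, by a median of -0.67 on the log2 scale, and so were 26 of the 27 members, with AspRS-m the exception; over all records 41.6% were higher in replicate 2. Without this library 2 members were called, PheRS-m (-1.08, limma adjusted p = 0.0345) and SerRS-m (-1.11, limma adjusted p = 0.0367), and MetRS stood at -1.06 (limma adjusted p = 0.0921). Without WT activated replicate 2, 0 members were called, with PheRS-m at -1.41 (limma adjusted p = 0.051), and without WT replicate 1 the 3 mitochondrial genes were. Quantile normalization left the same 3, while GluProRS and ArgRS also missed the threshold with median-of-ratios scaling, which moved the median of all records from -0.16 to 0.045.

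Transcript length moved with the fold change in activated eggs. Over 8 bins of all records with a length, the median log2 fold change ran from 0.51 in the shortest (median 760 nt) to -0.80 in the longest (median 5731 nt), whereas in mature oocytes the bins lay between -0.09 and 0.005. The 3 cytoplasmic genes with the largest falls, GluProRS (4278 nt), MetRS (3403 nt) and ValRS (3360 nt), are long, while PheRS-m (1526 nt) is among the shortest members. With the trend of length removed from each library, GluProRS (-0.67, limma adjusted p = 0.276), MetRS (-1.17, limma adjusted p = 0.0706) and ValRS (-1.10, limma adjusted p = 0.102) missed the threshold, and AspRS and TyrRS-m passed beside PheRS-m, SerRS-m, LeuRS-m and ArgRS. In mature oocytes the same 4 members were called with and without the trend. The classes differed little in length, with medians of 2337 nt for the mitochondrial and 2298 nt for the cytoplasmic genes.

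**Figure D4:**
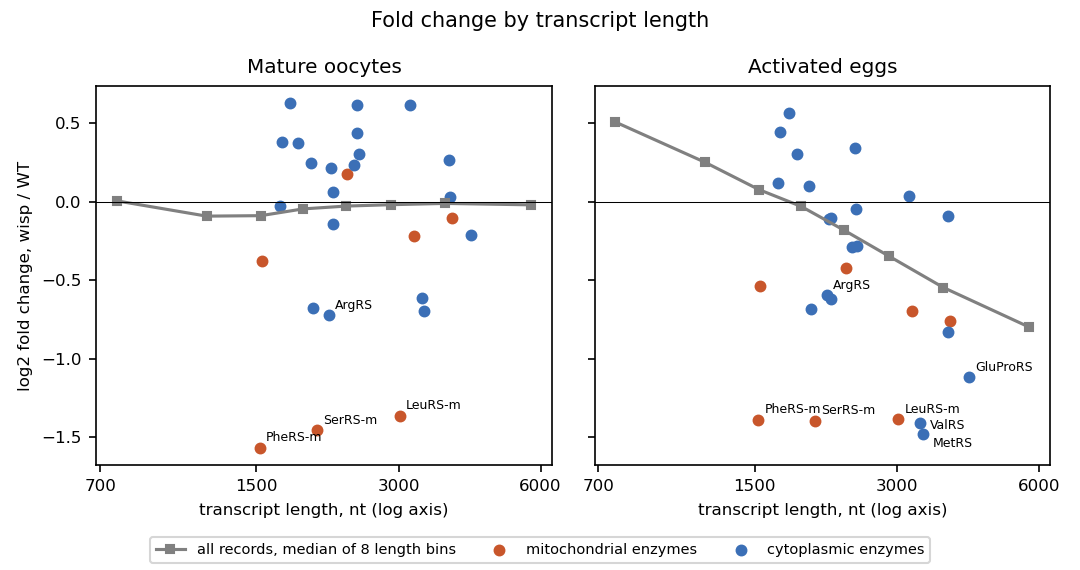
Log2 fold change of wisp over WT against transcript length (log axis) for the 27 synthetase genes in mature oocytes (left) and activated eggs (right); grey squares are medians of all records in 8 length bins, and called members are named. The grey line is flat in mature oocytes and runs from 0.51 to -0.80 in activated eggs, where GluProRS, MetRS and ValRS lie at the long end and PheRS-m at the short end.

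In immature oocytes the genotypes did not differ detectably in any synthetase transcript. There 0 of 27 members were called by limma, 0 at an unadjusted p under 0.05, and over all records 0.0738% were called lower and 0.0369% higher. PheRS-m had 384 and 473 in wisp and 420.5 and 557 in WT, SerRS-m 532 and 596 and 546 and 778, and LeuRS-m 903 and 1120.0 and 956 and 1392. The genotypes overlapped in all 3, at log2 fold changes of -0.18, -0.21 and -0.20. The standard errors of members ran from 0.18 to 0.36. They come from a spread shared by the 6 groups, so a gene has the same error in each pairwise comparison. Replicates of immature oocytes correlated least, at 0.858 and 0.828, so these errors may be too small here. A call needs a difference of several standard errors. Differences well above that size could thus have gone undetected here. The wisp gene itself, at -3.84, missed the threshold in this comparison (limma adjusted p = 0.0676). The class medians were -0.15 for mitochondrial and 0.14 for cytoplasmic genes.

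Replicates of the immature groups lay far apart in several members. MetRS had 2771 and 4114 in wisp and 2876 and 4672 in WT immature oocytes, ValRS 2534 and 4058 and 2680.0 and 4217, and GluProRS 2803 and 5349 and 4359 and 5097. In all 3 replicate 2 was the higher one in each genotype and the genotypes overlapped. ArgRS had 1097 and 877 in wisp and 1351 and 1079.8 in WT, with replicate 2 the lower one in both. AspRS-m also had the lower value in replicate 2 of both genotypes, with 1612 and 1387 in wisp and 2078 and 1327 in WT, and AspRS had 2919 and 3376 and 2545 and 3213. AlaRS-m had 704 and 1077 in wisp and 709 and 1123 in WT, and AlaRS 4822 and 6446 and 3846 and 5385. In these pairs too the genotypes overlapped. MetRS-m had 425 and 524 in wisp and 333 and 536 in WT, and TyrRS-m 369 and 444 and 328 and 427. TyrRS, with 2487 and 2932 in wisp and 1733 and 2449 in WT, was 1 of 2 members, CysRS the other, whose wisp libraries were both above WT, an order that 15.9% of all records had, and in 0 members were both below, where 7.78% of all records were. LeuRS had 3011 and 4735 in wisp and 3709.7 and 4875 in WT, and SerRS 2916 and 3243 and 2348 and 3328. The subunit alpha-PheRS had 1990.1 and 2286 in wisp and 1473 and 2182 in WT, and beta-PheRS 1668 and 1979 and 1346 and 1868. For all 4 of these genes the span of the WT replicates covered at least 1 of the wisp libraries.

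The change with maturation was then set out for each genotype, mature over immature oocytes. In wisp 5 of 27 members (18.5%) were called lower and 0 higher, where 11.4% of all records were called lower and 1.68% higher. They were PheRS-m (-1.73, SE 0.23, limma adjusted p = 0.0034), SerRS-m (-1.27, SE 0.23, limma adjusted p = 0.0109), LeuRS-m (-1.22, SE 0.26, limma adjusted p = 0.0185), AspRS (-1.06, SE 0.23, limma adjusted p = 0.0189) and TyrRS-m (-0.77, SE 0.18, limma adjusted p = 0.0296). AspRS, the cytoplasmic aspartate enzyme, had 1399 and 1618 in wisp mature oocytes and 2919 and 3376 in wisp immature oocytes. TyrRS-m had 257 and 218 in mature and 369 and 444 in immature wisp oocytes. In both genes the stages did not overlap in wisp. Over the family both mature libraries lay below both immature ones in 20 members and above them in 2, CysRS and AspRS-m, where 34.4% of all records lay below and 32.8% above. This comparison shares the wisp mature libraries with the comparison of genotypes in mature oocytes. Only PheRS-m was called without wisp immature replicate 2, without wisp mature replicate 1 or without wisp mature replicate 2. With the wisp mature and immature libraries alone in the fit PheRS-m and SerRS-m were called, and TyrRS-m missed the threshold with length removed (limma adjusted p = 0.0518).

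In WT, 0 members and 0% of all records were called at maturation by limma, with 2 members at an unadjusted p under 0.05, TyrRS (-0.77) and GluProRS (-0.91), which are 7.41% of the 27 beside 9.63% of all records. The values had one sign in most members, since 26 of 27 were negative, all but AspRS-m (0.33), and in 16 members both mature libraries lay below both immature ones, where 17.4% of all records did, while the median over all records was 0.14. WT immature replicate 2 was above replicate 1 in 25 of 27 members, with a median of 0.50 over the family on the log2 scale. The part of that replicate in the shared sign was not tested. The cytoplasmic median of the WT change was -0.43 and the mitochondrial median -0.06. LeuRS-m had 1063 and 1161 in WT mature oocytes and 956 and 1392 in WT immature oocytes, where the mature values fell between the 2 immature ones. The median log2 change of the cytoplasmic class was close in wisp, at -0.42, whereas the mitochondrial median in wisp was -0.77. The test of the difference between genotypes in the maturation change called 0 members, where 1.03% of all records were called lower and 0% higher. The largest values in it were those of PheRS-m (-1.39, SE 0.33, limma adjusted p = 0.0868), SerRS-m (-1.25, SE 0.33, limma adjusted p = 0.131) and LeuRS-m (-1.17, SE 0.37, limma adjusted p = 0.208), and 4 members had an unadjusted p under 0.05, AspRS the other, which are 14.8% of the 27 beside 11.9% of all records. Without overlap in either genotype, CysRS was higher at maturation in wisp and lower in WT, as 0.332% of all records were, and 0 members moved the other way, where 3.21% of all records did.

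At egg activation no member passed in either genotype. In wisp, activated over mature, 0 members were called, against 0.0184% of all records called lower and 0% higher, and the values ran from -0.62 (LeuRS) to 0.09 (ArgRS). Both egg libraries lay below both mature ones in 6 members and above them in 1, where 24.9% of all records lay below and 13.7% above. In WT 0 members were called, against 0.0553% of all records called lower and 0% higher, and the values ran from -0.16 (alpha-PheRS) to 0.42 (GluProRS), with both egg libraries below both mature ones in 4 members and above them in 14, where 25% of all records lay below and 18.1% above. In both genotypes 0 members had an unadjusted p under 0.05 in limma. PheRS-m and SerRS-m were at 0.05 and 0.02 in wisp (SE 0.23 each), and LeuRS-m eggs held 0.999 of the mature level (SE of the log2 value 0.26), so that these 3 genes differed between wisp eggs and wisp mature oocytes by less than their error. The difference between genotypes in this change called 0 members and 0% of all records, and its largest values were those of GluProRS (-0.90, limma adjusted p = 0.562) and LeuRS (-0.86, limma adjusted p = 0.561). Without overlap in either genotype, 6 cytoplasmic members were lower in eggs in wisp and higher in eggs in WT, as 10.7% of all records were, and 0 members moved the other way, where 7.62% of all records did.

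The balance between the classes was summarised in each library as the median log2 level of the cytoplasmic genes minus that of the mitochondrial genes, each gene first centred on its mean over the 12 libraries. In wisp it was 0.027 and 0.052 in immature oocytes, 0.24 and 0.44 in mature oocytes and 0.49 and 0.38 in activated eggs. In WT it was -0.13 and -0.14 in immature oocytes, -0.35 and -0.39 in mature oocytes and -0.32 and -0.39 in activated eggs. Each wisp library thus lay above each WT library, also in immature oocytes, and the 2 genotypes moved in opposite directions after the immature stage. The difference of wisp minus WT was 0.18 in immature oocytes, 0.71 in mature oocytes and 0.79 in activated eggs. With the 4 enzymes that serve both compartments left out, the difference in activated eggs was 0.88. No p-value is given for these medians over chosen genes.

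**Figure D5:**
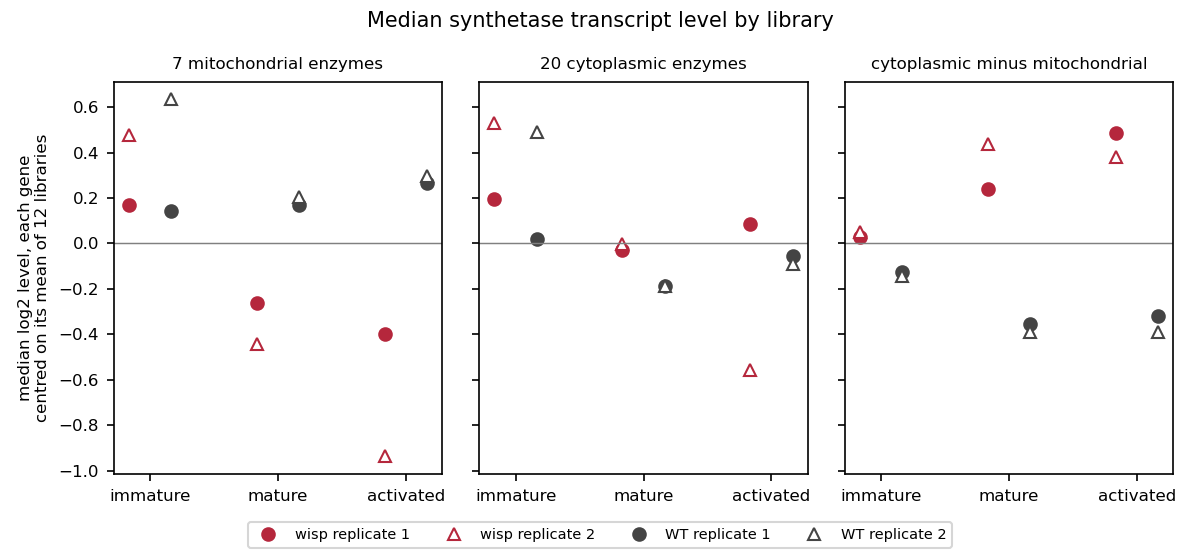
Median log2 level of the 7 mitochondrial and the 20 cytoplasmic synthetase genes, and their difference, in each of the 12 libraries, each gene centred on its mean over the libraries; red marks wisp, dark grey WT, circles replicate 1 and triangles replicate 2. In the right panel the wisp libraries run from 0.027 to 0.49 and the WT libraries from -0.39 to -0.13.

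On a linear scale, mitochondrial enzymes made up 7.68% and 8.39% of the summed normalised read counts of the family in wisp mature oocytes, against 11.2% and 12% in WT mature oocytes. The shares were 7.22% and 9.57% in wisp eggs and 11% and 13% in WT eggs. In immature oocytes they were 8.3% and 7.31% in wisp and 9.57% and 8.05% in WT, where the genotypes overlapped. Per transcript length the immature shares did not overlap, at 7.78% and 7.19% in wisp and 9.07% and 8.02% in WT. AspRS-m alone held 1801 and 2090 of the 3816 and 4328 counts of the mitochondrial class in wisp mature oocytes, so the share follows that gene more than the medians do.

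For 7 amino acids both the mitochondrial and the cytoplasmic enzyme are members, and their levels per transcript length were set side by side. The level of PheRS-m over alpha-PheRS was 0.0783 and 0.0706 in wisp mature oocytes and 0.274 and 0.304 in WT mature oocytes, and it was 0.0834 and 0.0802 in wisp eggs and 0.29 and 0.298 in WT eggs. For serine the ratio of SerRS-m over SerRS was 0.0733 and 0.0912 in wisp mature oocytes against 0.275 and 0.31 in WT. For leucine the ratio of LeuRS-m over LeuRS was 0.181 and 0.193 in wisp mature oocytes against 0.466 and 0.517 in WT. In these 3 pairs the mitochondrial transcript was thus scarcer beside its cytoplasmic counterpart in wisp mature oocytes. In immature oocytes the ratio was already lower in wisp for phenylalanine, at 0.215 and 0.23 against 0.318 and 0.284 in WT, and for serine, at 0.166 and 0.168 against 0.212 and 0.214 in WT. The leucine ratio overlapped there, at 0.383 and 0.302 in wisp and 0.329 and 0.365 in WT. AlaRS-m over AlaRS was 0.131 and 0.145 in wisp mature oocytes and 0.237 and 0.254 in WT, and TyrRS-m over TyrRS was 0.159 and 0.133 against 0.311 and 0.274. Both of these ratios were also lower in wisp immature oocytes, at 0.144 and 0.164 against 0.181 and 0.205 for alanine and at 0.171 and 0.174 against 0.217 and 0.2 for tyrosine. For methionine and aspartate the order was turned round. MetRS-m over MetRS was 0.357 and 0.411 in wisp mature oocytes and 0.198 and 0.222 in WT, and AspRS-m over AspRS was 0.653 and 0.655 against 0.412 and 0.468. In these 2 pairs the cytoplasmic transcript was lower in wisp than in WT mature oocytes, though still above the mitochondrial one. In eggs the aspartate ratios overlapped, at 0.443 and 0.797 in wisp and 0.503 and 0.777 in WT. The methionine ratios stayed apart there, at 0.372 and 0.405 in wisp and 0.188 and 0.183 in WT. In immature oocytes the methionine ratio was already higher in wisp, at 0.223 and 0.185 against 0.168 and 0.167 in WT. The aspartate ratio overlapped in immature oocytes, at 0.28 and 0.208 in wisp and 0.414 and 0.209 in WT.

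The cytoplasmic counterparts themselves stayed close to or above WT in mature oocytes for leucine, serine and phenylalanine. LeuRS had 2778 and 3130.3 in wisp and 2915 and 2872 in WT, with overlap (log2 fold change 0.03). SerRS had 2677 and 2532 in wisp and 2099.8 and 1922 in WT, without overlap (0.37, limma adjusted p = 0.461). In activated eggs LeuRS had 2478 and 1485 in wisp and 3492 and 3325 in WT, and SerRS 3031 and 2014 in wisp and 1975 and 2028 in WT. LeuRS was thus lower in both wisp egg libraries, while SerRS overlapped between genotypes. AlaRS overlapped too in eggs, with 4512 and 2628 in wisp and 3374 and 3351 in WT, and AspRS had 1699 and 1156 in wisp and 2296 and 2217 in WT.

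The cytoplasmic phenylalanine enzyme is built of alpha and beta subunits in equal number, from 2 genes. alpha-PheRS had 1973 and 1858 in wisp mature oocytes and 1457 and 1485 in WT (log2 fold change 0.38, limma adjusted p = 0.459). beta-PheRS had 1290.1 and 1306 in wisp and 1092 and 1094 in WT (0.25, limma adjusted p = 0.719). Both subunits were above WT in both wisp libraries, and neither passed. In activated eggs alpha-PheRS had 2183 and 1478 in wisp and 1358 and 1278 in WT, and beta-PheRS 1496 and 938 and 1145 and 1067. Per transcript length the alpha subunit exceeded the beta subunit in every library, by 1.33 to 1.82 times in wisp and 1.26 to 1.57 times in WT. In mature oocytes that ratio was 1.76 and 1.64 in wisp and 1.54 and 1.57 in WT, and in eggs it was 1.68 and 1.82 in wisp and 1.37 and 1.38 in WT.

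The remaining cytoplasmic members were described by their range. In mature oocytes AsnRS, GlnRS, GlyRS, HisRS, IleRS, LysRS, ThrRS and TrpRS had log2 fold changes from -0.14 (HisRS) to 0.44 (GlnRS), and in activated eggs from -0.62 (HisRS) to 0.12 (TrpRS). Of these 8 genes 0 passed in any comparison. The 4 enzymes that serve both compartments had a median of 0.22 in mature oocytes and -0.29 in activated eggs. The 8 enzymes of the multisynthetase complex (ArgRS, AspRS, GlnRS, GluProRS, IleRS, LeuRS, LysRS and MetRS), a grouping made after the values were seen, had 1 member called lower in mature oocytes and 3 in activated eggs, with medians of -0.09 and -0.64. These are 12.5% and 37.5% of the 8, beside 9.37% and 17.7% of all records called lower.

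Exons of several members overlap those of other genes, and the sources do not state whether reads were counted by strand, so reads of such pairs cannot be told apart. In the Ensembl gene models of dm6, 63.9% of the exon bases of AspRS lie over the antisense RNA gene asRNA:CR45141. For GluProRS 16.6% lie over asRNA:CR46092, and for SerRS-m 13.9% lie over Nagk, a gene on the opposite strand. HisRS shares 8.9% with Bx on its own strand. PheRS-m, LeuRS-m, ArgRS, MetRS and ValRS had no such overlap.

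Other genes of tRNA charging were read from lists chosen with earlier results of these data known. Of 7 synthetase genes outside the rule 4 were in the table, all mitochondrial. In mature oocytes 0 of the 4 were called, and in activated eggs ValRS-m was lower, with 443 and 303 in wisp and 695 and 718 in WT (-0.95, limma adjusted p = 0.0364). CysRS-m fell with maturation in wisp (-1.40, limma adjusted p = 0.00265). In WT it was lower in both mature libraries too, without passing (-0.84, limma adjusted p = 0.243). Between genotypes CysRS-m was at 0.03 in mature oocytes. TrpRS-m (-0.46 in mature oocytes, -0.56 in eggs) and ArgRS-m (-0.03 and 0.15) did not pass. GatB, a subunit of the transamidase that makes mitochondrial Gln-tRNA, was the 1 of 3 subunits in the table and missed the threshold in mature oocytes (-0.60, limma adjusted p = 0.0519). Of the scaffold proteins AIMP1, AIMP2 and AIMP3 0 were called between genotypes, and AIMP2 fell with maturation in wisp (-1.04, limma adjusted p = 0.0278).

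Elongation factors, among them those that carry charged tRNA to the ribosome, had 7 of 8 listed genes in the table. The elongation factor Ef1alpha48D was higher in wisp mature oocytes (0.76, limma adjusted p = 0.0207). In activated eggs its exchange factor Ef1beta was higher (0.75, limma adjusted p = 0.047) and ico, the mitochondrial translocase mEFG1, was lower (-0.81, limma adjusted p = 0.0172). EfTuM, which carries charged tRNA in mitochondria, was at -0.04 in mature oocytes and -0.25 in eggs and did not pass. Of 7 genes of tRNA maturation 5 were in the table. The list took in CG9596 and CG12975 because their symbols in the table start with Trm, so they could not be missing. In the list, 3 genes for tRNA methyltransferases or their partner subunits were called lower in both comparisons, beside 9.37% and 17.7% of all records. CG5220, annotated as a tRNA methyltransferase, was at -1.75 in mature oocytes and -1.62 in eggs (limma adjusted p = 0.000798 and 0.000672), CG12975, annotated as Trmt112, at -1.35 and -0.50 (limma adjusted p = 0.00157 and 0.0398), and CG9596, annotated as Trmt6, at -1.06 and -0.93 (limma adjusted p = 0.00967 and 0.0116). For the amino acid sensing genes Gcn2, crc and eIF-2alpha 0 were called in these comparisons.

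Ribosomal protein genes give the nearest comparison for a split by compartment. Wisp mature oocytes had 20 of 65 mitochondrial ribosomal protein genes (30.8%) called lower and 0 higher, with a median of -0.45, and 1 of 84 cytoplasmic ones called lower and 0 higher, with a median of 0.55. Over all records 9.37% were called lower and 0.683% higher. The synthetase medians had the same signs in that comparison, -0.38 and 0.22. In activated eggs 61 cytoplasmic ribosomal protein genes were higher with a median of 0.94, where the cytoplasmic synthetases had 0 higher, 4 lower and a median of -0.11, and 7.3% of all records were called higher. Transcript length differs between these lists, with medians of 716 nt for cytoplasmic and 783 nt for mitochondrial ribosomal proteins, against 2298 nt for the cytoplasmic synthetases. With the trend of length removed, the cytoplasmic ribosomal list had 5 higher and 1 lower in eggs and a median of 0.28, and the cytoplasmic synthetases had 2 lower and a median of -0.08. The mitochondrial ribosomal protein genes had 11 lower (16.9%) and 5 higher (7.69%) in eggs, beside 17.7% and 7.3% of all records. Their median was -0.08, against -0.76 for the mitochondrial synthetases. With the trend of length removed, 37 mitochondrial ribosomal protein genes were lower and 0 higher in eggs, with a median of -0.63, against -0.74 for the mitochondrial synthetases. Over all records 811 were called lower and 93 higher in eggs with that trend removed. With quantile normalization 0 mitochondrial ribosomal protein genes were called in mature oocytes, where 43 of all records were called lower and 7 higher. No test compared these lists with each other.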

How the data were processed

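Each deposited value is the authors' normalised read count of a transcript record, a signal that is never negative; the authors' way of normalising is not given in the sources used. The tools named in the submitters' processing notes, without their roles, are STAR 2.4.2a, HTSeq and RSEM 1.2.25, and the build is dm6. Of 5422 records 1 identical duplicate was removed, and 5406 of the 5421 left matched RefSeq (15 by name) and 5407 had a transcript length (median over the gene's Ensembl transcripts). Values were no whole multiples of a read's worth, and the table used here has 0 ERCC records, so depth and absolute scale are unknown.

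Values were analysed as log2(value + 1), and fold changes are on that scale. A single limma fit (3.58.1, R 4.3.3, intensity trend) estimated 6 group means with 6 residual and 2.43 prior degrees of freedom over all 5421 records, with Benjamini-Hochberg adjustment and a call at an adjusted p of 0.05. All 27 members are accounted for; values in every library are given for members called between genotypes or in a transition, for both enzymes of an amino acid where both are members, and for both PheRS subunits. The members, classes and lists were chosen with earlier results of these data known. Alternatives were pseudocounts of 0.5 and 5, a mean of at least 200, median-of-ratios scaling, quantile normalization, replicate blocks, removal of the length trend, only the libraries compared, and leaving out each library.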

Additional observations from a re-analysis of the deposited data

Results flagged for a closer look

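For 7 members (1 in maturation and 6 at activation) the libraries of the 2 genotypes moved in opposite directions without overlap between the stages, and the difference itself was tested in limma as an interaction and missed the threshold in each. In maturation CysRS was higher in wisp mature than in wisp immature oocytes and lower in WT mature than in WT immature oocytes, with a genotype difference of 0.42 on the log2 scale (SE 0.26, adjusted p = 0.701); 0.332% of all records moved in this way. At activation 6 cytoplasmic genes were lower in wisp eggs than in wisp mature oocytes and higher in WT eggs than in WT mature oocytes, as 10.7% of all records were. The differences were -0.86 for LeuRS (adjusted p = 0.561), -0.80 for ValRS (adjusted p = 0.581), -0.79 for MetRS (adjusted p = 0.567), -0.59 for GlyRS (adjusted p = 0.613), -0.58 for AlaRS (adjusted p = 0.608) and -0.52 for ThrRS (adjusted p = 0.61). In all 6 the lower of the wisp eggs was replicate 2, the library in which all 20 cytoplasmic members were below replicate 1. Its part in these values was not tested.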

How the results depend on the processing

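The 16 single-gene calls kept their sign under the alternatives run, while the cytoplasmic median in activated eggs (-0.11) was 0.10 with quantile normalization and likewise with median-of-ratios scaling, and the median of all records turned from -0.03 to 0.03 in mature oocytes and from -0.16 to 0.045 in activated eggs with median-of-ratios scaling. Of these calls none was lost with pseudocounts of 0.5 or 5, with a mean of at least 200 or with a block within each stage, 4 each with median-of-ratios scaling, length removed or a block over all stages, 7 with only the libraries compared and 10 with quantile normalization. Leaving out a library gave 0 to 2 members called in mature oocytes (4 with all libraries), 0 to 8 in activated eggs (7), 1 to 4 in wisp maturation (5); the lone library of such a group is assumed to vary like the others. Quantile normalization gave 0, 3 and 3, and only the libraries compared 15 (8 lower, 7 higher), 3 and 2. Over all records quantile normalization called 43 lower and 7 higher, 294 and 203, and 238 and 35. Only the libraries compared called 1474 lower and 800 higher, 417 and 59, and 190 and 19. Same-numbered libraries deviated together within a stage (their correlations between genotypes were 0.849 for immature oocytes, 0.483 for mature oocytes and 0.771 for activated eggs) but in opposite directions between immature and other stages (-0.938 to -0.31). The labels tie no number to a shared batch, and 2 numbers are too few to show pairing, so they were not taken as pairs. A replicate block over all stages gave 3, 5 and 4 members. Over all records it called 387 lower and 21 higher, 744 and 271, and 446 and 60. A replicate block within each stage gave 10 (7 lower, 3 higher) in mature oocytes, 14 (13 lower, 1 higher) in activated eggs, 14 in wisp maturation, 5 in WT maturation (0 without it) and 3 in the genotype difference in maturation (0 without it), which were LeuRS-m, PheRS-m and SerRS-m. Over all records the block within each stage called 1042 lower and 260 higher in mature oocytes and 1869 and 1040 in activated eggs. It called 1291 lower and 1600 higher in wisp maturation and 264 and 1268 in WT maturation. For the genotype difference in maturation it called 508 records lower and 23 higher. The cytoplasmic median in mature oocytes was 0.28 with median-of-ratios scaling, 0.13 with quantile normalization and 0.16 without the 4 enzymes that serve both compartments, and the mitochondrial median was -0.093 with quantile normalization. The cytoplasmic minus mitochondrial difference was 0.30 in immature and 0.48 in mature oocytes with quantile normalization, 0.25 in immature oocytes with length removed and 0.88 in activated eggs without those 4. The causes were not tested. Depth is unknown, and a fall below 100 is not seen here.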

Other observations

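The replicates of the immature groups differed in one direction across the family. In wisp immature oocytes 24 of 27 members were higher in replicate 2 than in replicate 1, with a median of 0.29 on the log2 scale, and in WT immature oocytes 25 of 27 were, with a median of 0.50. Over all records 53.1% were higher in replicate 2 in wisp and 51.8% in WT. The exceptions were ArgRS and AspRS-m in both genotypes and CysRS in wisp. In wisp activated eggs the order was the other way, with 26 of 27 members lower in replicate 2, while in WT activated eggs 12 of 27 were higher in replicate 2. The family summed to 0.473% and 0.631% of the table's values in the 2 wisp immature libraries, 0.409% and 0.391% in wisp mature oocytes and 0.403% and 0.243% in wisp eggs. In WT the shares were 0.406% and 0.672% in immature oocytes, 0.439% and 0.396% in mature oocytes and 0.476% and 0.398% in eggs.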
